A study of Mus musculus with 6 samples.

Results

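Genes known for their response to glucocorticoids or to metals, 10 in all (Fkbp5, Tsc22d3, Sgk1, Mt1, Mt2, Zbtb16, Cdkn1a, Nr3c1, Gadd45g and Dusp1), were read by name from liver RNA-Seq of 6 house mice (Mus musculus), and all 10 passed the filter on low values, among 19486 gene names tested of 49135 with a value in every mouse. The mice were 3 laboratory animals of the inbred strain C57BL/6, all male, and 3 wild-caught animals, of which wild mouse 1 was male and wild mice 2 and 3 were female. The labels name no treatment and no altered gene. The laboratory mice were adults killed on arrival from the breeder. The wild mice were adults trapped at a pair of places, wild mouse 3 at a different place than wild mice 1 and 2. They were kept in captivity for some months first. The paper lists a longer time since preparation for the laboratory carcasses, and gives no storage time for the frozen liver. Strain, origin, housing, transport, time since preparation and, in part, sex therefore differed together and cannot be told apart. All were killed by cervical dislocation, and RNA came from liver that had been stored frozen without fixation. The hour of death was not given in the sources used here.

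Glucocorticoids, of which corticosterone is the main hormone in mice, are released from the adrenal gland with a daily rhythm and in stress. They enter liver cells and bind the glucocorticoid receptor, which leaves its chaperones, moves to the nucleus and switches on genes for glucose release, amino acid breakdown and feedback control. Metallothioneins are small cysteine-rich proteins that hold zinc and copper, and their genes respond both to metals, through the factor MTF1, and to glucocorticoids. Several of the 10 genes also respond to other signals, among them p53, fasting, inflammation and growth factors.

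The unit of the values below is FPKM, the fragments of a gene corrected for transcript length and for the size of the library, which allows levels to be compared between genes. Tests used zFPKM, in which log2 FPKM is centred on the mode of the values in each mouse and divided by an SD fitted to them, with a difference given as laboratory minus wild and its standard error (SE). Laboratory mouse 3 and wild mouse 1 stood apart, with modes of 2.12 and 2.51 and SDs of 2.51 and 2.69, against modes of 0.491 to 1.77 and SDs of 2.89 to 3.12 in the other 4 mice, so results are also given without both. The median difference of all tested genes was 0.00 in zFPKM and -0.47 on the log2(FPKM + 0.1) scale, so that a typical gene had a higher FPKM in wild mice, and FPKM ratios should be read against that shift. The absolute depth is unknown, and relative to laboratory mouse 2 the depth was 0.922 in laboratory mouse 3 and 1.14 to 1.36 in the wild mice. Laboratory mouse 1 has no such value, because the bounds of FPKM from which depth was derived were not listed for it. All 10 hepatocyte markers were present in every mouse, with a summed FPKM of 67187 to 86270 in laboratory and 44813 to 54864 in wild mice. That sum is set by a few very abundant markers, as 4 of the 10 were called higher and 4 lower in laboratory mice and their median difference was 0.02. Xist and the Y-linked genes went with the sex labels. In whole tissue, a lower value from fewer cells of a type cannot be told apart from less RNA per cell.

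Of the 10 genes, 3 differed between laboratory and wild mice in limma at an adjusted p under 0.05. Cdkn1a and Zbtb16 were lower and Gadd45g was higher in laboratory mice, whereas 14.4% of all tested genes were called, 7.35% as lower and 7.03% as higher. Groups did not overlap in zFPKM for 2 of the 10 genes, Cdkn1a and Gadd45g, against 28.2% of all genes. The median difference of the 10 genes was -0.28. Exact permutation tests of single genes gave p = 0.1, the smallest that 3 against 3 allows, for Cdkn1a and Gadd45g and 0.3 to 1 for the other 8 genes. With the trend, limma gave an infinite prior degree of freedom, so each SE is that of genes of similar level and a gene's own spread does not enter. Without the trend, limma called 0 of the 10 genes and 4.34% of all genes. At an unadjusted p under 0.05 it gave 2 of the 10, Cdkn1a and Gadd45g. The share of all genes at that unadjusted bound is not given here.

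In FPKM, 4 of the 10 genes (Tsc22d3, Zbtb16, Cdkn1a and Nr3c1) were higher in every wild mouse than in any laboratory mouse, against 43.8% of all tested genes, and Gadd45g was lower in every wild mouse, as were 12.0% of all genes. The groups overlapped for the other 5 genes. Wild mice were not uniform. The mean of the wild females was over 4 times the value of the wild male for 6 of the 10 genes, Zbtb16 (13.3 times), Cdkn1a (11.3), Fkbp5 (9.12), Mt2 (7.55), Mt1 (6.04) and Dusp1 (4.44), and 12.3% of all genes passed the same bound, which was chosen after the values were seen. For Mt1 and Mt2 that mean rested on wild mouse 2, at 291 and 249 FPKM. Wild mouse 3, at 48.2 and 39.8 FPKM, lay within the laboratory range for both. For Tsc22d3, Sgk1, Gadd45g and Nr3c1 the ratio of wild females to the wild male lay between 1.10 and 1.42, near the median of 1.08 over 18024 genes. With 1 wild male and no laboratory female, sex and the individual mouse cannot be told apart.

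**Figure D1:**
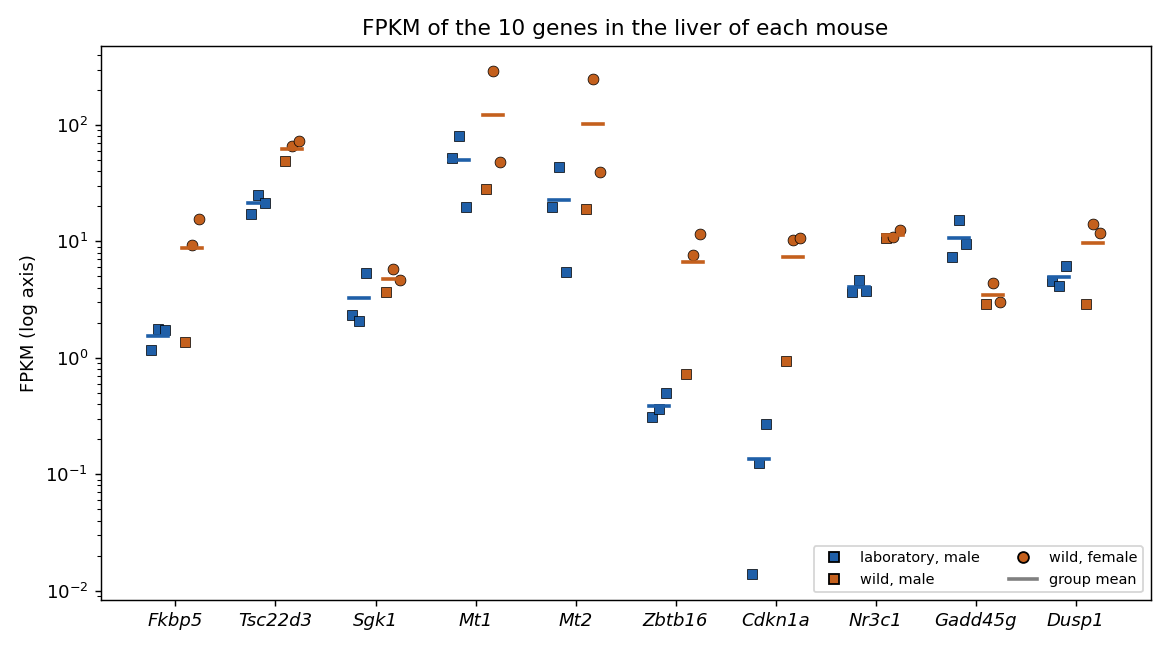
FPKM (log axis) of each of the 10 genes in each mouse, with squares for males, circles for females, blue for laboratory and orange for wild mice, and a bar for the mean of each group. The orange square of the wild male lies with the wild females for Tsc22d3, Nr3c1 and Gadd45g, and among or below the laboratory males for Fkbp5, Mt1, Mt2 and Dusp1.

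The receptor itself was considered first. Nr3c1 (chromosome 18, 39410545 to 39519421, GRCm38), which encodes the glucocorticoid receptor, had 3.70, 4.69 and 3.74 FPKM in laboratory mice 1 to 3 and 10.6, 10.9 and 12.5 FPKM in wild mice 1 to 3. The wild mice were all higher and close to each other, and their mean of 11.3 ± 1.03 (SD, n = 3) was 2.80 times the laboratory mean of 4.05 ± 0.561 (SD, n = 3). In zFPKM the groups overlapped and the difference of -0.28 (SE 0.20) was not called (limma adjusted p = 0.417, and 0.000441 to 0.921 over its 19 alternatives). On log2(FPKM + 0.1) with equal medians in all mice it was -0.71 (SE 0.20, adjusted p = 0.0216), and quantile normalization also called it (adjusted p = 0.0364), while those fits called 47.6% and 39.0% of all genes and had all-gene medians of 0.28 and 0.00.

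Fkbp5 (chromosome 17, 28398753 to 28486149) encodes a cochaperone that lowers the receptor's affinity for hormone and is itself switched on by the receptor. Its FPKM was 1.17, 1.77 and 1.72 in laboratory mice, against 1.36, 9.25 and 15.6 in wild mice. Only the wild females were high, and the wild male lay among the laboratory males. The means were 1.55 ± 0.336 (SD, n = 3) in laboratory and 8.74 ± 7.14 (SD, n = 3) in wild mice, and the difference in zFPKM was -0.40 (SE 0.25, 95% interval -0.89 to 0.08, limma adjusted p = 0.314). Without wild mouse 1 it was -0.89 (adjusted p = 0.0178), and with sex as a covariate it was 0.57 (adjusted p = 0.259), in fits whose all-gene medians were -0.14 and 0.27. The values given and tested are those listed on an alternate sequence of the assembly, which was the only listing in laboratory mouse 1. They were identical to the chromosome 17 values in the other 5 mice, so each value may be a share of the gene's reads.

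Tsc22d3 (chromosome X, 140539528 to 140600522), whose product GILZ carries part of the anti-inflammatory action of glucocorticoids, was the highest of the non-metallothionein genes. Laboratory mice had 17.3, 24.8 and 21.6 FPKM and wild mice 48.7, 66.3 and 72.3 FPKM. Every wild mouse was higher, the male included, and the wild mean was 2.94 times the laboratory mean. The difference in zFPKM, where the groups overlapped, was -0.28 (SE 0.14, limma adjusted p = 0.196). As for Nr3c1, it was called with equal medians on log2(FPKM + 0.1) (-0.79, SE 0.19, adjusted p = 0.0112) and after quantile normalization (-0.25, adjusted p = 0.0220).

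Zbtb16 (chromosome 9, 48651797 to 48836225) encodes the zinc finger factor PLZF, whose gene is strongly induced by glucocorticoids in many cell types. It had 0.310, 0.361 and 0.494 FPKM in laboratory mice, against 0.725, 7.61 and 11.6 FPKM in wild mice. The females were far above the rest, and the wild male was just above the highest laboratory mouse in FPKM but not in zFPKM. The difference was -0.91 (SE 0.32, limma adjusted p = 0.0326, exact permutation p = 0.3). The call was lost without the trend (adjusted p = 0.304), without each mouse except wild mouse 1, and with sex as a covariate, where the difference was 0.21 (adjusted p = 0.754) against an all-gene median of 0.27.

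Sgk1 (chromosome 10, 21882184 to 21999903), a kinase named for its induction by serum and glucocorticoids, promotes sodium uptake in epithelia. It had 2.33, 2.08 and 5.34 FPKM in laboratory mice, against 3.71, 5.79 and 4.69 FPKM in wild mice. The groups overlapped through laboratory mouse 3. The difference was 0.04 in zFPKM (95% interval -0.42 to 0.49, limma adjusted p = 0.943), and on the plain log2(FPKM + 0.1) scale it was -0.63 (adjusted p = 0.211).

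Dusp1 (chromosome 17, 26505591 to 26508472), a phosphatase that switches off MAP kinases, had 4.60, 4.17 and 6.20 FPKM in laboratory mice, against 2.92, 14.1 and 11.8 FPKM in wild mice. The wild male was the lowest of the 6 mice and the wild females were the highest. The difference was 0.03 (95% interval -0.37 to 0.44, limma adjusted p = 0.943), between means of 4.99 ± 1.07 and 9.62 ± 5.91 FPKM (SD, n = 3 each).

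Cdkn1a (chromosome 17, 29090979 to 29100722) encodes p21, an inhibitor of cyclin-dependent kinases that is a classic target of p53 and responds to glucocorticoids as well. Its FPKM was 0.0137, 0.124 and 0.269 in laboratory mice, against 0.930, 10.4 and 10.7 in wild mice. Every wild mouse was higher, the females most, and the difference of -1.75 (SE 0.37, limma adjusted p = 8.17e-05) was the furthest from 0 of the 10 genes. The laboratory values are close to 0, and the authors' bounds for laboratory mouse 2 run from 0 to 0.259 FPKM. The gene was also listed on the alternate sequence, where 5 mice gave 0.0413 and 0.0896 FPKM (laboratory mice 2 and 3) and 0.881, 4.06 and 7.17 FPKM (wild mice), in the same direction. The call held without each mouse in turn (adjusted p 0.000402 to 0.0433), but was lost without the trend (adjusted p = 0.0786) and with sex as a covariate (-0.69, adjusted p = 0.349).

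Gadd45g (chromosome 13, 51846675 to 51848475), a member of the family induced by growth arrest and DNA damage, acts on stress kinases. It was the only gene of the 10 that was higher in laboratory mice in FPKM, with 7.34, 15.3 and 9.55 FPKM against 2.89, 4.43 and 3.03 FPKM in wild mice. The groups did not overlap and the wild male lay just below the females. The means of 10.7 ± 4.10 and 3.45 ± 0.854 (SD, n = 3 each) differed 3.11-fold, and the zFPKM difference was 0.80 (SE 0.21, limma adjusted p = 0.00196, exact permutation p = 0.1). It was the only call of the 10 that held with sex as a covariate (1.12, SE 0.26, adjusted p = 0.0237), a fit that called 7.10% of all genes, 5.75% as higher and 1.34% as lower in laboratory mice, and moved the median of all genes to 0.27. It was lost without the trend (adjusted p = 0.120), without laboratory mouse 2 (adjusted p = 0.117) and without wild mouse 1 (adjusted p = 0.0529).

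The metallothionein pair Mt1 and Mt2 lies side by side on chromosome 8, at 94178883 to 94180327 and 94172618 to 94173567. Their start windows, taken from RefSeq on GRCm38.p6 as 250 bases before to 50 after a start, are shown because the pair followed each other from mouse to mouse. Capitals mark the metal response core, TGCACNC or TGCGCNC on either strand, and in Mt1 also TGACG, the core of the cyclic AMP response element, on the opposite strand. The windows are on the plus strand, chr8:94178839-94179138 for Mt1 and chr8:94172368-94172667 for Mt2. The Mt1 window belongs to a start inside the gene as listed, and the Mt2 window to the listed start of its gene.
Mt1: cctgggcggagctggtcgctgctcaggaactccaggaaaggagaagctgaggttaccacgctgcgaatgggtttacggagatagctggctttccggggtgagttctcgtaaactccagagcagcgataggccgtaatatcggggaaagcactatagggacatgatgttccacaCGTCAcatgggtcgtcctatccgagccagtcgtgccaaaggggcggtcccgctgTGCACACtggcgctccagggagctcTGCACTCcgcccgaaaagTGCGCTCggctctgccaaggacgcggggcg
Mt2: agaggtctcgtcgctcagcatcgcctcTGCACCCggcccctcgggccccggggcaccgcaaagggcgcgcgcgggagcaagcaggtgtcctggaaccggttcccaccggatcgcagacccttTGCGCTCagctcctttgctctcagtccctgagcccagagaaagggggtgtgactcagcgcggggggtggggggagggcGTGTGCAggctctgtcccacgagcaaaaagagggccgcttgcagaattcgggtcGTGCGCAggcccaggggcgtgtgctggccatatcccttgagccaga

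Metal response cores were found 3 times in the Mt1 window and 4 times in the Mt2 window. Of all 32851 windows of the same length, 25.7% held at least 1 such core, 1.97% held 3 or more and 0.517% held 4 or more. A match is a description of letters and not of binding.

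Mt1 had 51.8, 80.0 and 19.7 FPKM in laboratory mice, against 28.0, 291 and 48.2 FPKM in wild mice. Mt2 had 19.6, 43.3 and 5.50 FPKM in laboratory mice, against 19.1, 249 and 39.8 FPKM in wild mice. Wild mouse 2 was the highest and laboratory mouse 3 the lowest for both genes, and the SD of Mt1 was 30.2 FPKM in laboratory and 146 FPKM in wild mice (n = 3 each). Differences in zFPKM were -0.01 (SE 0.14, limma adjusted p = 0.980) for Mt1 and -0.38 (SE 0.15, adjusted p = 0.0746) for Mt2. Without the trend the SE of Mt2 was 0.47 and its adjusted p was 0.690, and without laboratory mouse 3 its difference was 0.04. Mt2 had 0.378, 0.541 and 0.279 of the Mt1 FPKM in laboratory mice and 0.681, 0.855 and 0.826 of it in wild mice. That ratio was higher in every wild mouse, and it was noticed after the values were seen.

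Among the other 6 genes with a RefSeq start window, Sgk1 was singled out because 1 of its 6 windows holds the letters of a full glucocorticoid response element. The letters searched were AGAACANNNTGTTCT, an inverted repeat of the receptor hexamer AGAACA with 3 bases between. They occurred in 3 of the 32851 windows (0.00913%) and for 0.0111% of all genes with a window. The window lies at chr10:21993640-21993939 on the plus strand, with capitals on the inverted repeat and on a separate hexamer upstream of it, and it belongs to a start inside the gene.
Sgk1: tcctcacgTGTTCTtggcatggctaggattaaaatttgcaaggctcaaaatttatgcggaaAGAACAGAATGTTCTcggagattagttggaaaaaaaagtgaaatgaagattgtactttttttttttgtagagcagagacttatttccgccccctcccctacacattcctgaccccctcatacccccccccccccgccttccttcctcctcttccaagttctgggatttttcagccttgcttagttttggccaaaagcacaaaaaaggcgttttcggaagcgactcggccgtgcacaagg

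The Dusp1 window, on the minus strand at chr17:26508423-26508722, is shown for its cyclic AMP response letters. Capitals mark TGACG, found 3 times with an overlap of the forward and reverse matches in a palindrome, and 1 metal response core at the start. TGACG was present in 20.8% of all windows and 3 or more copies in 1.03%.
Dusp1: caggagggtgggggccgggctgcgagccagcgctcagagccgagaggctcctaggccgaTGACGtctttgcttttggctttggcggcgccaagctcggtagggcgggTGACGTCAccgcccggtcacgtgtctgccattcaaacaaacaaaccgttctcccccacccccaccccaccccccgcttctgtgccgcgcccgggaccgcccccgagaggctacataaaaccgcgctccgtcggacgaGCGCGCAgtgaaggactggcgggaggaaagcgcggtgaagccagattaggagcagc

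Across the 16 windows of 8 genes, the receptor hexamer was found for 2 of the 8 genes, Sgk1 and Tsc22d3, and for 21.3% of all genes with a window. The metal response core was found for 5 of the 8 genes and for 28.2% of all genes with a window. No searched letters were found in the windows of Fkbp5 or of Cdkn1a, which says only that they are not in these 300 bases. The TATA box letters TATAAA, searched on the strand of the gene, were found for Gadd45g and Sgk1 and for 9.77% of all genes with a window.

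**Figure D2:**
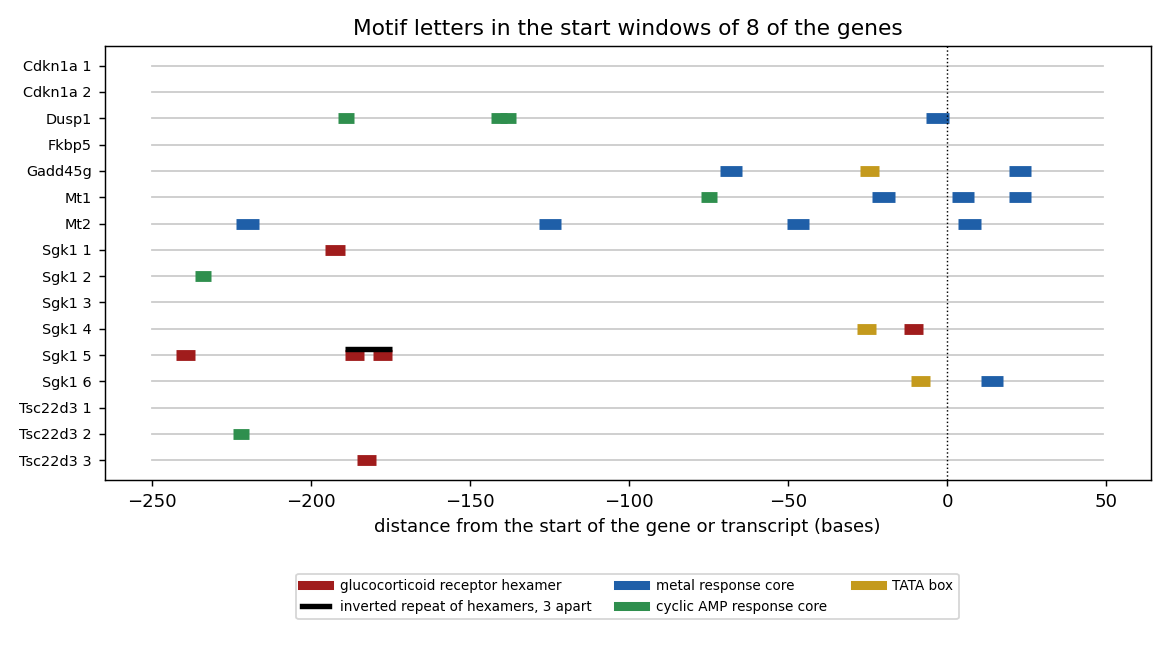
Positions of searched motif letters in the 16 start windows of 8 genes, in bases from the start, with a number for each window where a gene has several. Blue metal response cores number 3 in Mt1 and 4 in Mt2, and the black bar in Sgk1 window 5 marks the inverted repeat.

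Fits with and without sex were set side by side for all 10 genes. In the fit with sex as a covariate the laboratory effect rests on wild mouse 1 for the wild group, and the 10 differences ran from -0.69 (Cdkn1a) to 1.12 (Gadd45g). The sex coefficient, wild females minus the wild male, was above 0 for all 10 genes, as it was for 93.2% of all tested genes, whose median was 0.38. For Nr3c1 (0.33), Tsc22d3 (0.37), Gadd45g (0.47) and Sgk1 (0.51) it lay near that median. It reached 1.67 (SE 0.36) for Zbtb16, 1.59 (SE 0.44) for Cdkn1a, 1.45 (SE 0.30) for Fkbp5 and 1.07 (SE 0.25) for Dusp1. At an adjusted p under 0.05 limma called 0 of the 10 genes for sex and 0.380% of all genes, and at an unadjusted p under 0.05 it called 6 of the 10 against 11.0% of all genes, of which nearly all, 10.5% of all genes, were higher in the wild females. In the same fit the median laboratory difference of all genes was 0.27, against 0.00 without sex. Both contrasts use the same wild mice.

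**Figure D3:**
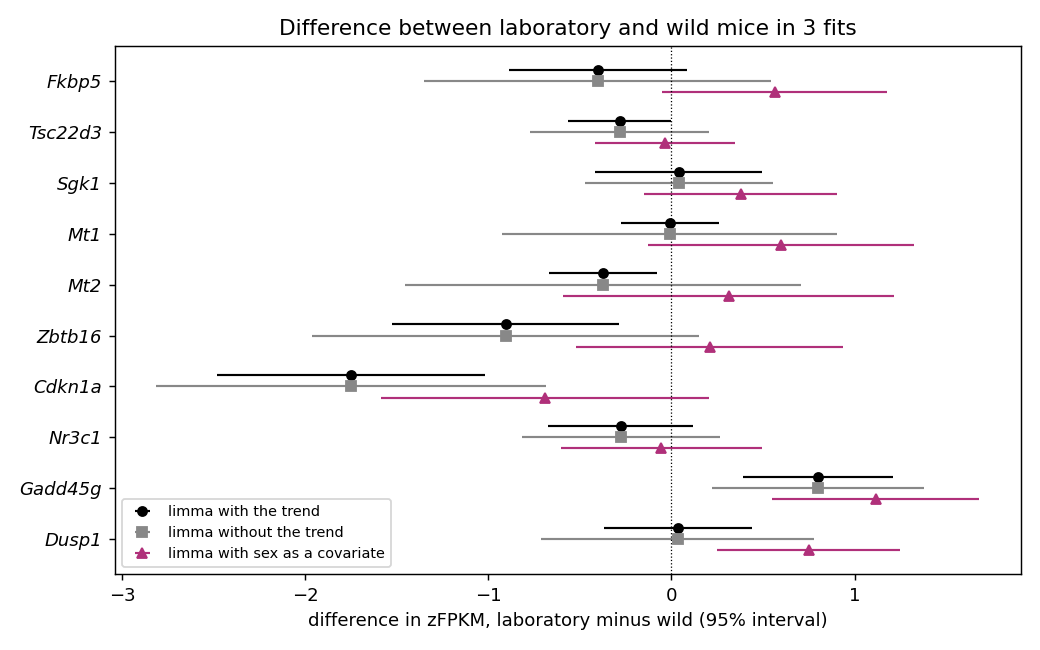
Difference in zFPKM, laboratory minus wild, with its 95% interval for each of the 10 genes in limma with the trend (black), without the trend (grey) and with sex as a covariate (magenta). Cdkn1a lies furthest left in all 3 fits, Gadd45g stays right of 0 in all 3, and with sex included, where the median of all genes is 0.27, Fkbp5 lies at 0.57 and Zbtb16 at 0.21.

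Genes that supply or remove the hormone were taken next. Of 7 tested, 4 were lower and 1 was higher in laboratory mice, with a median difference of -0.44 against 0.00 for all genes. Of all tested genes, 7.35% were called as lower and 7.03% as higher. The counts of all related lists are to be read beside those shares. Serpina6, the plasma carrier of corticosterone that the liver secretes, had 98.7, 117 and 79.3 FPKM in laboratory mice, against 326, 682 and 631 FPKM in wild mice (difference -0.58, SE 0.11, limma adjusted p = 8.50e-06). Abcb1a, an exporter that carries steroids out of cells, was lower in laboratory mice (-1.08, SE 0.36, adjusted p = 0.0227), as was H6pd, which supplies NADPH to the enzyme that makes corticosterone from its inactive form (-0.44, SE 0.15, adjusted p = 0.0307). That enzyme, Hsd11b1, was the most abundant of the list, and its difference of -0.17 (SE 0.10) was not called (adjusted p = 0.266). Srd5a1, a reductase that clears steroids, was higher in laboratory mice (0.83, SE 0.18, adjusted p = 9.82e-05), with 24.8, 22.1 and 16.0 FPKM against 16.2 FPKM in the wild male and 4.25 and 3.25 FPKM in the wild females. Abcb1b was the least abundant (adjusted p = 0.760). With sex as a covariate, and likewise without the trend, 0 of these 7 genes were called by limma, and 1 and 3 of them were at an unadjusted p under 0.05.

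Against 14.4% of all tested genes, 2 of 16 chaperones, cochaperones and coregulators of the receptor were called, both lower in laboratory mice. They were the chaperones that hold the receptor ready for hormone, Hsp90ab1 (57.9, 73.0 and 49.8 FPKM against 300.4, 384 and 494 FPKM, difference -0.68, SE 0.12, limma adjusted p = 3.42e-07) and Hsp90aa1 (17.9, 22.3 and 18.7 FPKM against 91.1, 79.9 and 126 FPKM, difference -0.56, SE 0.14, adjusted p = 0.00129). In both, the wild male lay with the wild females. Both calls were lost with sex as a covariate (adjusted p = 0.0849 for Hsp90ab1 and 0.202 for Hsp90aa1), where limma called 0 of the 16 genes and 3 were at an unadjusted p under 0.05. Hspa8, the most abundant of the list, differed by 0.01 (SE 0.11, adjusted p = 0.981), and Nr3c2, the mineralocorticoid receptor and the least abundant, by -0.31 (SE 0.32, adjusted p = 0.608). The median difference was -0.12.

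Among 21 other tested liver genes known to respond to glucocorticoids, 4 were lower and 1 was higher in laboratory mice, and the median difference was -0.18. The shares over all tested genes were 7.35% lower and 7.03% higher. Tat, the tyrosine aminotransferase long used as a marker of glucocorticoid action in liver, had 56.96, 91.7 and 148 FPKM in laboratory mice, against 558, 975 and 521 FPKM in wild mice (-0.70, SE 0.11, limma adjusted p = 1.50e-08). Igfbp1, a binding protein for insulin-like growth factors, had 5.44, 20.9 and 14.3 FPKM against 74.1, 172 and 29.0 FPKM (-0.64, SE 0.15, adjusted p = 0.000453). Tdo2, which starts tryptophan breakdown, had 109.5, 140.5 and 102 FPKM against 680.2, 626 and 601 FPKM (-0.60, SE 0.11, adjusted p = 2.14e-06). For these 3 genes the wild male was as high as at least 1 wild female. Bcl6, a repressor, was higher in laboratory mice (0.60, SE 0.19, adjusted p = 0.0188) although the groups overlapped in FPKM. Pck1, the gate of glucose synthesis and the most abundant of the list, differed by -0.22 (adjusted p = 0.133), and Pdk4, the least abundant, by -0.70 (adjusted p = 0.130). With sex as a covariate Tat (-0.58, adjusted p = 0.0386), Tdo2 (-0.59, adjusted p = 0.0235) and Bcl6 (1.36, adjusted p = 0.00337) were still called. Both wild females were above all 4 males for 13 of the 21 genes and for 6 of the 10, against 25.1% of all tested genes.

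Metal handling gave a single call in 21 tested genes, against 14.4% of all tested genes. Slc39a8, an importer of zinc and manganese, had 1.58, 1.79 and 1.68 FPKM in laboratory mice, against 10.4, 14.3 and 11.0 FPKM in wild mice (-0.73, SE 0.22, limma adjusted p = 0.0114). Slc39a4, the most abundant of the list, differed by -0.02 (adjusted p = 0.959), and Slc30a2, the least abundant, was listed at 0 in all laboratory mice and at most 0.0711 FPKM in wild mice. Mt3 and Mt4, the metallothioneins of other tissues, did not pass the filter. The median difference was -0.25, and FPKM was higher in every wild mouse for 17 of the 21 genes, against the 43.8% given above for all genes.

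Paralogs of the 10 genes showed a single call in 18 tested, Dusp6, a phosphatase that acts on ERK (0.742, 1.45 and 1.14 FPKM against 12.6, 23.4 and 13.4 FPKM, difference -1.10, SE 0.23, limma adjusted p = 4.32e-05). The median difference was -0.10, Fkbp4 was the most abundant (-0.24, adjusted p = 0.248) and Dusp4 the least (0.15, adjusted p = 0.890). Of 14 p53 pathway genes, Trp53inp1 was lower (-0.60, SE 0.20, adjusted p = 0.0220) and Bax, which promotes cell death and was the most abundant, was higher in laboratory mice (0.42, SE 0.15, adjusted p = 0.0351), with a median difference of -0.23. Eda2r, the least abundant, differed by -1.22 (adjusted p = 0.0573). The share called over all tested genes, to set beside the counts of both lists, was 14.4%.

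**Figure D4:**
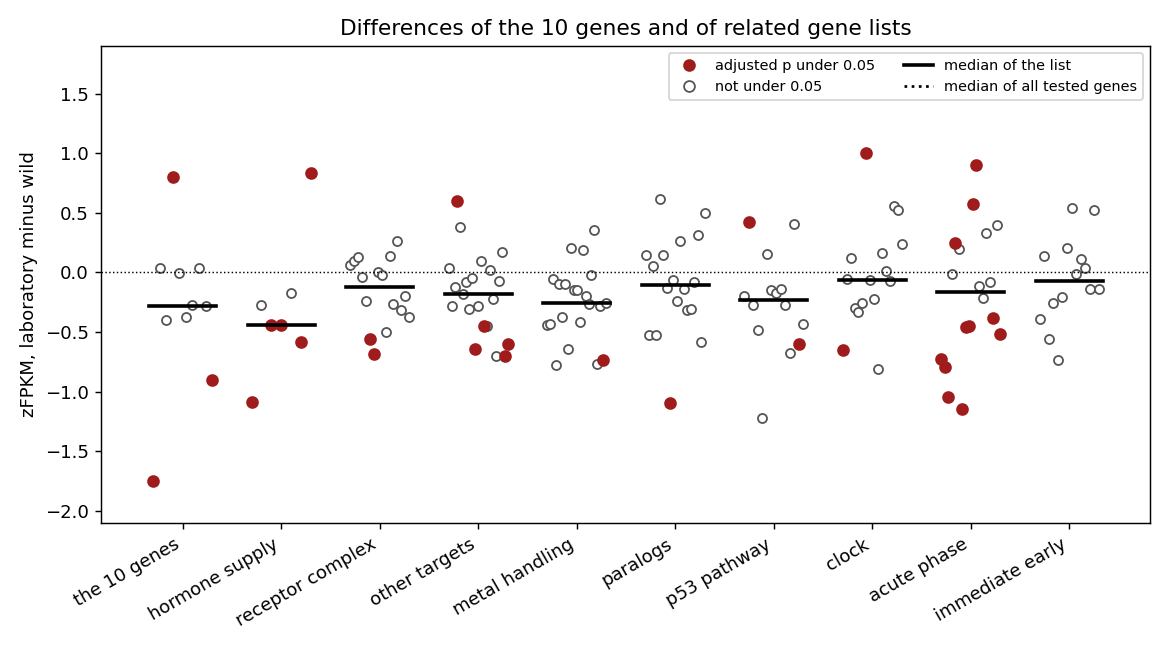
Difference in zFPKM, laboratory minus wild, for each tested gene of the 10 and of 9 related lists, filled where the limma adjusted p was under 0.05, with a bar for the median of each list and a dotted line for the median of all tested genes. Medians of the lists lie between -0.44 for hormone supply and -0.06 for the clock genes, and Cdkn1a is the lowest point.

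Clock genes, acute phase genes and immediate early genes were read because glucocorticoids and several of the 10 genes vary with the hour, with inflammation and with handling. Of 16 clock genes, Dbp was called as higher in laboratory mice (0.999, SE 0.22, limma adjusted p = 0.000115) and Arntl as lower (-0.65, SE 0.23, adjusted p = 0.0364). The share called over all tested genes was 14.4%. Dbp had 9.62, 9.42 and 12.1 FPKM in laboratory mice, 0.644 and 0.867 FPKM in wild mice 1 and 2, and 22.3 FPKM in wild mouse 3, so that wild mouse 3 was apart from the other wild mice. Nr1d1 was the most abundant (0.17, adjusted p = 0.521) and Bhlhe41 the least (-0.06, adjusted p = 0.959), and the median was -0.06. The part of the hour of death in the differences of the 10 genes was not tested.

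Acute phase genes, whose products the liver makes in inflammation, were listed with some genes of their signalling, Il6ra and Socs3 among them. The genes of this list moved in both directions, with 8 of 18 lower and 3 higher in laboratory mice and a median of -0.16. Of all tested genes, 7.35% were called as lower and 7.03% as higher. Il6ra (-1.15, limma adjusted p = 7.36e-05), Fga (-1.04, adjusted p = 4.39e-20) and Crp (-0.80, adjusted p = 1.01e-07) were lower, and Orm2 (0.90, adjusted p = 1.26e-11), Orm1 (0.57, adjusted p = 2.29e-07) and Hp (0.25, adjusted p = 0.0408), the most abundant, were higher. Socs3, the least abundant, was not called (0.40, adjusted p = 0.374). Among 14 tested immediate early genes limma called 0, with 0 at an unadjusted p under 0.05, and the median was -0.07, between Ier2 as the most (0.21, adjusted p = 0.466) and Egr2 as the least abundant (-0.56, adjusted p = 0.480). Without the trend limma called 0 genes in each of these 9 related lists except for Fga (adjusted p = 0.0345), with 3, 3, 3, 4, 2, 1, 2, 7 and 0 genes at an unadjusted p under 0.05, in the order described. The share of all genes at that unadjusted bound is not given here, nor is it for the laboratory difference with sex as a covariate. With sex as a covariate, where the laboratory effect rests on wild mouse 1, the calls of Slc39a8, Dusp6, Trp53inp1, Arntl, Il6ra, Crp, Orm1 and Hp were lost. Those of Bax, Dbp, Fga and Orm2 held.

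Markers of other liver cells moved along with some of these patterns. The summed FPKM of 8 Kupffer cell and macrophage markers was 63.5 to 102 in laboratory mice, 30.8 in wild mouse 1, 113 in wild mouse 2 and 239.5 in wild mouse 3, so that the wild male was the lowest and the wild females were the highest of the 6 mice, as they were for Dusp1. Endothelial marker sums were likewise lowest in the wild male and highest in the wild females (17.3, 61.1 and 33.4 FPKM in wild mice 1 to 3, with 20.8 to 32.2 in the laboratory group). So were the sums of immediate early genes (36.5, 74.2 and 59.8 FPKM, with 37.6 to 47.2). In both, wild mouse 2 was above wild mouse 3, unlike for the Kupffer markers. These sums are set by the more abundant genes, and single genes did not all follow them. Both wild females were above all 4 males for 5 of 8 Kupffer, 4 of 7 endothelial and 8 of 14 tested immediate early genes. The share over all tested genes was 25.1%. Stellate cell and fibroblast markers summed to 33.4 to 52.4 FPKM in laboratory and 72.9 to 134 FPKM in wild mice. Dcn carried most of that sum, while the called members of the list, Col1a1 (0.83, limma adjusted p = 0.0258) and Col3a1 (0.70, adjusted p = 0.0102), were higher in laboratory mice, and these 3 genes are named after their values were seen. Biliary markers summed to 29.7 to 64.6 FPKM in laboratory and 12.2 to 27.6 FPKM in wild mice. Neutrophil markers summed to 6.52 to 12.9 FPKM in laboratory and 1.80 to 2.65 FPKM in wild mice with Ly6g at 0 in every mouse, lymphocyte markers to 5.11 to 7.11 and 1.71 to 7.22 FPKM, and erythrocyte markers to 1339.8 to 5135 and 724 to 1581 FPKM. The part of these cells in the differences of the 10 genes was not tested.

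Leaving out laboratory mouse 3 and wild mouse 1 together gave calls for 6 of the 10 genes, and for 30.4% of all genes. Fkbp5 (-0.72, limma adjusted p = 0.00534), Tsc22d3 (-0.31, adjusted p = 0.0126), Zbtb16 (-1.29, adjusted p = 0.00206) and Nr3c1 (-0.21, adjusted p = 0.0461) were then lower in laboratory mice, as Cdkn1a was, and Gadd45g was higher. That comparison sets 2 male laboratory mice against 2 wild females, so origin and sex cannot be told apart in it.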

How the data were processed

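RNA-Seq of liver was analysed for 3 laboratory and 3 wild mice, grouped by GEO's labels. The authors aligned the reads with kalign to a masked mouse genome and calculated FPKM with the Tuxedo pipeline, so the deposited FPKM are scaled to transcript length and library size. The deposited zFPKM is a score for which the R package zFPKM was used by the authors, and it centres and scales log2 FPKM separately in every mouse. The submitters' processing notes name GRCm38.p6, and the positions of all 10 genes match RefSeq on that build.

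No counts were used here, so the edgeR test of the study's methods could not be run. Entries were matched by name and position to laboratory mouse 1, which lists each name once, and 31 names were dropped for a failed estimate, leaving 49135. With R 4.3.3 and limma 3.58.1, groups were compared over the 19486 genes whose zFPKM exceeded -3 in at least 3 mice, after values under -3 had been raised to it. The functions lmFit and eBayes were used with a trend, and p-values were adjusted by Benjamini-Hochberg. The procedure was tested on simulated data. Exact permutation tests of means, in zFPKM and in FPKM, were two-sided. Those given beside a difference are in zFPKM. Tables and figures were made in Python 3.11.15. Start windows came from RefSeq, and 8 of the 10 genes matched.

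The 10 genes and the related lists were chosen with earlier results of these data known. All 10 are named, and from each related list the called genes with the 3 largest differences in each direction and the most and least abundant tested gene. Cell type and sex lists were read for their summed level. Cufflinks' bounds gave the relative depth and are quoted for 1 low Cdkn1a value. In limma with the trend the SE comes from genes of similar level, and the spread of the 3 mice per group is given as SD.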

Additional observations from a re-analysis of the deposited data

How the results depend on the processing

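The number of the 10 genes called was 3, and 2 to 3 with each mouse left out in turn. It was 5 on log2(FPKM + 1), log2(FPKM + 0.1), log2(FPKM + 0.1) with equal medians and after quantile normalization, 6 without laboratory mouse 3 and wild mouse 1, 1 with sex as a covariate, and 0 without the trend or without the filter (2 at an unadjusted p under 0.05 in each, Cdkn1a and Gadd45g). Shares of all genes at that unadjusted bound are not given here. Over all genes limma called 2802, and 1462 to 2636 with a mouse left out. It called 8672 on log2(FPKM + 1), 9007 on log2(FPKM + 0.1), 9273 with equal medians, 7603 after quantile normalization, 5490 with a median of 0 in each mouse, 5929 without laboratory mouse 3 and wild mouse 1, 1383 with sex as a covariate, 845 without the trend and 20 without the filter. On log2(FPKM + 0.1) 38.1% of all genes were called as lower in laboratory mice and 8.09% as higher, and with equal medians 18.4% and 29.1%.

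Tsc22d3 was -1.51, -1.55, -0.79, -0.25 and -0.31 and Nr3c1 -1.29, -1.47, -0.71, -0.21 and -0.21, all called, on the 2 plain log2 scales, with equal medians, after quantile normalization and without laboratory mouse 3 and wild mouse 1. In that last setting Fkbp5 was called at -0.72, Sgk1 turned to -0.12 and Dusp1 to -0.23. On the plain log2 scales Sgk1 was -0.50 and -0.63 and Dusp1 -0.62 and -0.67. With sex as a covariate, where the median of all genes moved from 0.00 to 0.27, Fkbp5 turned to 0.57, Mt1 to 0.60, Mt2 to 0.31 and Zbtb16 to 0.21, and Cdkn1a (-0.69) lost its call. Mt1 turned to 0.0010, 0.0110 and 0.0323 with equal medians, quantile normalization and a median of 0, where Zbtb16 (-0.87) lost its call. Without the filter or without the trend Zbtb16 (-0.91), Cdkn1a (-1.75) and Gadd45g (0.80) lost theirs, as Zbtb16 did with a floor of -5. With each mouse left out the differences ran from -0.89 to -0.12 for Fkbp5, -0.41 to -0.19 for Tsc22d3, -0.13 to 0.18 for Sgk1, -0.31 to 0.36 for Mt1, -0.72 to 0.0365 for Mt2, -1.46 to -0.60 for Zbtb16, -2.28 to -1.46 for Cdkn1a, -0.39 to -0.10 for Nr3c1, 0.64 to 0.96 for Gadd45g and -0.32 to 0.26 for Dusp1. Mt2 was called without laboratory mouse 2 (-0.66, adjusted p = 0.00903). The causes were not tested. A robust trend and names listed once in every mouse, both added after seeing the data, changed no call of a gene they could test, and a filter of zFPKM above -1 changed none either. The labels name no pairing between laboratory and wild mice, so no paired analysis was made.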
